A study of Mus musculus with 17 samples.

Results

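Sympathetic ganglia of mice heterozygous for an activating Alk mutation were compared with wild-type ganglia at postnatal day 18 (P18). The 5 arrays labelled P18 were taken from the 17 arrays of the series, 2 labelled Het and 3 labelled Wt, and every gene with a log2 value above 4 in at least 2 of the 17 arrays entered the comparison, which left 9973 of 17306 probe sets, 9545 of them with a gene symbol. All mice were of the C57BL/6 strain. Wt mice carried no mutation, and Het mice carried F1178L knocked into 1 of their Alk alleles, an allele in which the mutated exon lies between a LoxP and a Lox511 site and which stands in the germline, so that no promoter or Cre limits it to neurons. The superior cervical and stellate ganglia were pooled for RNA, per the study's methods. The P0 arrays used for reference, 4 Wt and 4 Het, came from newborn mice of the same line. A further 4 P0 arrays labelled Hom, from newborns with F1178L in both Alk alleles, entered the tests only through the filter and the estimate of spread. Separate animals are not stated in the labels, and p-values thus cover only the spread among these samples. A batch or a scan date is not given either, and a batch that followed stage or genotype cannot be told apart from it.

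Alk is a receptor tyrosine kinase made by immature sympathetic neurons, and activating mutations of it occur in neuroblastoma, a tumour of that lineage. A kinase-active receptor signals through adaptor proteins to the ERK and PI3K pathways. Sympathetic neuroblasts divide around birth and then leave the cell cycle, so ganglia of the third postnatal week consist of noradrenergic neurons that make Th and Dbh, together with glia, vessels and fibroblasts.

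The tissue checked against its markers. In all 5 arrays Th, which encodes tyrosine hydroxylase, lay between 12.90 and 13.33, and Dbh, dopamine beta-hydroxylase, between 13.38 and 13.59 on the log2 scale. Pnmt, which marks adrenaline-making chromaffin cells, lay between 2.04 and 2.07, and the sensory neuron factor Pou4f1 between 2.56 and 2.60. However, of 3 sensory neuron genes tested, 2 lay above log2 4 in all 5 arrays. The mean of these 3 genes was 6.12 to 6.41 in Wt and 6.25 and 6.56 in Het arrays. Pairwise correlations among the 5 arrays ran from 0.9929 to 0.9969, the highest between the 2 Het arrays. Wt replicate 1 stood apart by transcripts of other tissue. Its mean over 15 skeletal muscle genes was 5.58, against 2.87 and 2.94 in the other Wt arrays and 2.93 and 2.84 in Het replicates 4 and 5. Its mean over 4 fat genes was 9.65, against 6.85 and 6.00 in Wt and 6.06 and 7.70 in Het arrays. Xist was above 10 in Wt replicates 1 and 3 and Het replicate 4 and under 3 in Wt replicate 2 and Het replicate 5, so each genotype held arrays of either kind. A list of 10 genes for RNA quality had means of 9.38 to 9.51 in Wt and 9.41 to 9.47 in Het arrays.

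Het ganglia at P18 differed from Wt in 26 genes, 21 higher and 5 lower, which was 0.261% of the genes tested (0.211% higher and 0.0501% lower). Cartpt, the precursor of CART peptides, and Pappa, a protease that cleaves IGF binding proteins, rose most. The copine gene Cpne9 and the non-coding gene Gm12371 fell most. Pappa in Wt and Gm12371 in Het arrays lay under log2 4, so the sizes and ranks of both are inexact. Pappa also passed the filter only through the Het arrays in which it is high. The test was limma with the Benjamini-Hochberg adjustment over all genes, with 1 mean for each of the 5 groups of the series, and the threshold for a call was an adjusted p of 0.05. Of the 26 genes, 25 had a symbol and 21 differed at least 2-fold. The arrays of both genotypes did not overlap for any of the 26, as was also the case for 35.5% of all genes tested. An unadjusted p under 0.05 was found for 778 genes (7.8%), 387 higher and 391 lower, and the median difference over all genes was -0.02. The typical standard error of the difference was 0.20 (median over genes), and the smallest called difference was 0.75. In the 5 arrays alone only 10 arrangements exist, so the smallest exact two-sided p for a single gene would be 0.1.

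The number of calls rested on few arrays. It was 5 without Het replicate 4, 5 without Het replicate 5, 9 without Wt replicate 1, 18 without Wt replicate 3 and 29 without Wt replicate 2. Cartpt, Cpne9 and a probe set with no symbol in the annotation used here stayed called in all 5 of these fits. All 26 genes kept their sign in each of them. Gab1, Iqgap2, Lgi4, Pde1a, Rasl10a, Rassf4, Shox2 and Tenm3 lost their calls with any 1 of the 5 P18 arrays left out. In a fit of the 5 P18 arrays alone 18 genes were called, 8 of them among the 26, Cartpt included (adjusted p = 0.038) and Cpne9 not (0.12). With each array weighted by its quality, 401 genes were called, including all 26.

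**Figure D1:**
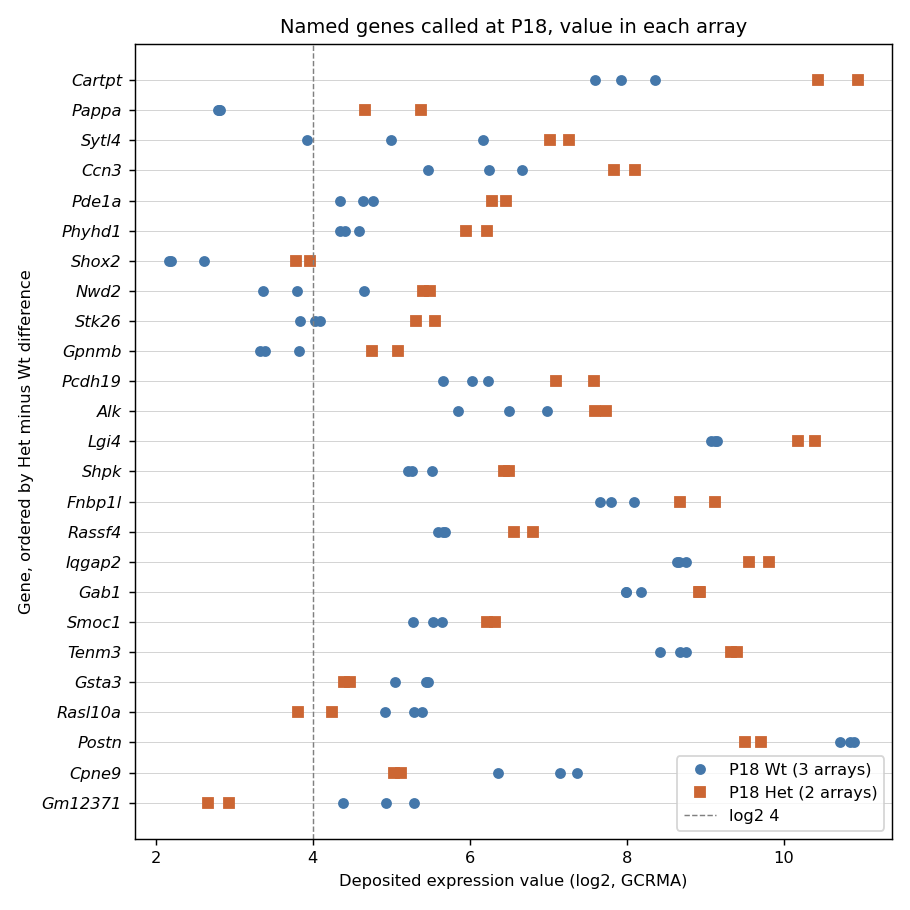
Deposited log2 expression value (x axis) of the 25 named genes called at P18 (y axis, ordered by difference), with 1 point for each of 3 Wt and 2 Het arrays. The groups do not overlap for any gene, 20 genes lie higher and 5 lower in Het arrays, and the values of Shox2 lie under log2 4 (dashed line) in all 5 arrays.

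The mutated gene itself was among the calls. Alk (chr17:71868988-72604702, GRCm38.p6) was at 6.50, 6.98 and 5.85 in Wt replicates 1 to 3 and at 7.74 and 7.60 in Het replicates 4 and 5. Both Het arrays lay above all Wt arrays. Alk rose by 1.22 ± 0.23 on the log2 scale (SE; 95% interval 0.74 to 1.70; limma adjusted p = 0.034), and Het was also higher at P0, by 0.68 (adjusted p = 0.045). The difference between both stages was 0.54 ± 0.29 (adjusted p = 0.55). The level of a transcript does not show whether it carries the mutation, and Alk is no test of the genotype here. The call held in 8 of 15 alternative limma settings. It was lost without Wt replicate 1 (adjusted p = 0.086), Het replicate 4 (0.43) or Het replicate 5 (0.27), with Xist as a covariate (0.0505), with median centring (0.0504), in the P18 arrays alone (0.25) and with a limit of 1.2-fold (0.17). Of 57 genes within 10 Mb of Alk only Alk itself was called, and their median difference was -0.01. Ltk, the closest relative of Alk, and the growth factors Ptn and Mdk differed by 0.12, -0.26 and -0.29, and none of these was called.

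The called genes were sorted by role. Of the 6 called genes for secreted and matrix proteins, 5 rose and 1 fell, and 80.8% of all calls were higher. Cartpt (chr13:99898483-99910179, GRCm38.p6) was at 8.36, 7.60 and 7.92 in Wt and at 10.95 and 10.43 in Het arrays. The lower Het array lay more than 2 log2 units above the highest Wt array. The rise was 2.73 ± 0.24 (SE; 95% interval 2.22 to 3.25; limma adjusted p = 5.2e-05), or 6.64-fold, and it was between 2.47 and 2.99 with any 1 of the 5 arrays left out. Cartpt was the 1 called gene among 13 neuropeptide precursors tested. Het arrays lay above all Wt arrays for 6 of the 13 (15.9% of all genes) and under them for 3 (19.7%).

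Pappa was at 2.82, 2.80 and 2.79 in Wt and at 4.66 and 5.38 in Het arrays. The Wt arrays lay at background and only the Het arrays above log2 4, so the rise of 2.22 ± 0.28 (SE, limma adjusted p = 0.0019) is inexact in size. Pappa passed the filter on low values only through the 2 Het arrays in which it is high, as 44 genes did, and its adjusted p with no filter was 0.0011. Its call was lost without Het replicate 5 (adjusted p = 0.11). Of the 10 genes of the IGF axis tested, Pappa was the only one called. Igf1r, the IGF1 receptor, differed by 0.47 (adjusted p = 0.30), Igf1 by -0.39 (0.91) and Igfbp4, whose product is a substrate of the protease, by -0.29 (0.93).

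Ccn3, which encodes a matricellular protein, was at 6.66, 5.47 and 6.24 in Wt and at 8.10 and 7.84 in Het arrays. It rose by 1.85 ± 0.29 (SE, limma adjusted p = 0.014). Lgi4, a secreted protein that Schwann cells need for myelination, was at 9.13, 9.07 and 9.15 in Wt and at 10.40 and 10.18 in Het arrays, a rise of 1.17 (adjusted p = 0.029). The 3 Wt arrays were within 0.1 of each other, and both Het arrays lay about 1 log2 unit higher. No other glial gene moved with it past the test: 0 of 7 myelinating Schwann cell genes and 0 of 10 genes of satellite and immature glia were called, and the list means were 6.73 to 6.83 and 7.88 to 8.15 in Wt, and 6.83 to 6.94 and 7.93 to 8.07 in Het arrays. Smoc1, a calcium-binding matrix protein, rose by 0.79 (adjusted p = 0.040).

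Postn, which encodes periostin, a matrix protein of fibroblasts, fell. It was at 10.90, 10.72 and 10.85 in Wt and at 9.71 and 9.50 in Het arrays. The 2 Het arrays lay at least 1 log2 unit under every Wt array, a difference of -1.22 ± 0.19 (SE, limma adjusted p = 0.014). None of the other 18 fibroblast and matrix genes tested was called, and the list mean was 7.64 to 7.67 in Wt and 7.65 and 7.42 in Het arrays. In bulk ganglia, fewer cells of a type and less RNA per cell cannot be told apart.

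Among the called genes, 3 of the cell surface rose beside Alk. Pcdh19, a protocadherin of neurons, was at 6.03, 6.24 and 5.66 in Wt and at 7.58 and 7.10 in Het arrays, and rose by 1.37 ± 0.17 (SE, limma adjusted p = 0.0019). Tenm3, a teneurin that guides the choice of synaptic partners, was at 8.76, 8.68 and 8.42 in Wt and at 9.41 and 9.33 in Het arrays, and rose by 0.75 ± 0.14 (adjusted p = 0.040). For both genes the Het arrays lay above all Wt arrays, and of the 28 axon guidance and adhesion genes fixed as a list, which holds neither, none was called. Gpnmb, a transmembrane glycoprotein, was at 3.32, 3.39 and 3.83 in Wt and at 5.08 and 4.75 in Het arrays, so its rise of 1.40 (adjusted p = 0.019) starts at background. Like Pappa it passed the filter only through the 2 Het arrays, and its adjusted p with no filter was 0.0059.

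Of the 6 called genes for signalling inside the cell 5 rose, and 80.8% of all calls were higher. Gab1, a docking adaptor that receptor tyrosine kinases phosphorylate, was at 8.18, 7.99 and 7.99 in Wt and at 8.92 and 8.93 in Het arrays, a rise of 0.87 ± 0.16 (SE, limma adjusted p = 0.033). Pde1a, a calmodulin-dependent phosphodiesterase of cyclic nucleotides, was at 4.64, 4.35 and 4.77 in Wt and at 6.28 and 6.46 in Het arrays, a rise of 1.79 ± 0.34 (adjusted p = 0.040). Neither had overlapping arrays. Stk26, a serine/threonine kinase, rose by 1.45 (adjusted p = 0.019), the scaffold Iqgap2 by 0.995 (0.024) and Rassf4, of the Ras association domain family, by 1.04 (0.029). Rasl10a, a small GTPase of the Ras superfamily, was at 4.92, 5.29 and 5.39 in Wt and at 4.24 and 3.81 in Het arrays. It fell by 1.17 (limma adjusted p = 0.040). Rasl10a passed the filter on low values only through the P18 Wt arrays, in which it is high, as 98 genes did. Of 10 genes of the ERK pathway response none was called. Het arrays lay above all Wt arrays for 4 of the 10 (15.9% of all genes) and under them for 1 (19.7%). The feedback phosphatase Dusp6 differed by 0.25 and the immediate-early genes Egr1 and Fos by 1.31 and 1.15, with adjusted p of 0.91, 0.70 and 0.71.

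The called genes of membrane traffic went in both directions. Cpne9, which encodes a calcium-dependent membrane-binding protein of the copine family, was at 7.16, 6.36 and 7.37 in Wt and at 5.03 and 5.13 in Het arrays. It fell by 1.88 ± 0.22 (SE; limma adjusted p = 0.0013) and by 1.68 to 2.18 with any 1 of the 5 arrays left out. Sytl4, or granuphilin, which docks secretory granules, was at 5.00, 3.92 and 6.17 in Wt and at 7.26 and 7.02 in Het arrays. The Wt arrays spread over more than 2 log2 units, and the rise of 2.11 ± 0.41 had an adjusted p of 0.040. Fnbp1l, which links membrane curvature to actin, rose by 1.05 (adjusted p = 0.0065). Cadps2, a priming factor of dense-core vesicles, was at 4.90, 5.44 and 4.60 in Wt and at 6.82 and 7.20 in Het arrays, a difference of 2.03 that just missed the threshold (adjusted p = 0.0507). Of 24 genes of synaptic vesicles and exocytosis fixed as a list none was called, and the list median was -0.11. An unadjusted limma p under 0.05 was found for 3 lower (3.92% of all genes) and 1 higher (3.88%). Het arrays lay under all Wt arrays for 10 of the 24 (19.7% of all genes) and above them for 2 (15.9%).

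Shox2, a homeobox factor, was at 2.17, 2.61 and 2.19 in Wt and at 3.97 and 3.79 in Het arrays. All 5 values lay under log2 4, where the size of the rise of 1.56 ± 0.31 (SE, limma adjusted p = 0.047) is inexact. The call held in 3 of 15 alternative limma settings and was lost with any 1 of the 5 P18 arrays left out. Shox2 was the only call among 11 sympathetic transcription factors. Gata3, Phox2a, Isl1 and Hand2, which specify sympathetic neurons, differed by 0.19, -0.20, -0.15 and -0.19. Over the 11, differences ran from -0.96 to 1.56, with a median of -0.15. An unadjusted limma p under 0.05 was found for 2 lower (3.92% of all genes) and 1 higher (3.88%). Het arrays lay under all Wt arrays for 5 of the 11 (19.7% of all genes) and above them for 2 (15.9%). Among metabolic genes, Phyhd1, of the phytanoyl-CoA dioxygenase family, and Shpk, sedoheptulokinase, rose by 1.64 (adjusted p = 0.014) and 1.14 (0.019), and the glutathione transferase Gsta3 fell by 0.89 (0.040). Nwd2 rose by 1.52 (0.029) from Wt values of 3.79, 4.65 and 3.36 to 5.40 and 5.50. Gm12371 was at 4.93, 4.38 and 5.29 in Wt and at 2.67 and 2.93 in Het arrays, and fell by 2.07 (0.014) to background. The probe set with no symbol was at 6.08, 5.91 and 6.16 in Wt and at 7.61 and 7.67 in Het arrays, and rose by 1.59 (adjusted p = 5.2e-05). Of the 26 called genes, 3 were X-linked (Pcdh19, Stk26 and Sytl4), and 6 had a group mean under log2 4. The shares of such genes among all genes tested are not given here, so neither count shows an excess.

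Genes of noradrenergic function were not called in either direction. Th was at 13.19, 13.17 and 13.33 in Wt and at 12.94 and 12.90 in Het arrays. Although the arrays did not overlap, the difference of -0.31 ± 0.16 (SE) had a limma adjusted p of 0.70. Dbh differed by -0.07, with a 95% interval of -0.33 to 0.19. Of the 10 genes of catecholamine synthesis and transport none was called, and their median was -0.07. Npy, a cotransmitter of these neurons, was at 13.90, 13.81 and 14.17 in Wt and at 13.54 and 13.61 in Het arrays, a difference of -0.39 (95% interval -1.27 to 0.50, adjusted p = 0.98).

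Some fixed genes had separate arrays at P18 but no call. Vip, the vasoactive intestinal peptide precursor, was at 11.04, 10.69 and 11.37 in Wt and at 12.72 and 12.59 in Het arrays. Both Het arrays lay more than 1 log2 unit above all Wt arrays, but the standard error, to which the P0 arrays contribute, was 0.92, and the difference of 1.62 was not called (limma adjusted p = 0.77, and 0.068 in a fit of the P18 arrays alone). At P0 Vip ranged from 7.73 to 12.19 in Wt. Cbln2, a secreted organiser of synapses, was at 2.83, 3.08 and 2.84 in Wt and at 5.03 and 4.77 in Het arrays. Its difference of 1.99 ± 0.46 was not called (adjusted p = 0.12) and was called in the P18 arrays alone (0.038). Sst, the somatostatin precursor, lay under log2 3 in all 5 arrays. The receptor gene Ret differed by 0.26 (95% interval -0.37 to 0.89, adjusted p = 0.98), the granin-like precursor Vgf by -0.54 (0.56) and the transcription factor gene Mycn by -0.03 (95% interval -0.47 to 0.40).

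The stages were then set against each other. Their contrasts share no array, but the joint fit gives them 1 estimate of spread per gene. At P0, Het differed from Wt in 310 genes (3.11%), 180 higher (1.8%) and 130 lower (1.3%). Of these 310, 9 were called in the same direction at P18, 0 in the opposite direction and 301 were not called. The 9 made up 2.9% of the P0 calls and 34.6% of the P18 calls, and 0.261% of all genes were called at P18. With 4 arrays a group the P0 test had a median standard error of 0.16, smaller than at P18, and a gene called at 1 stage is not thereby shown to differ between stages. Transcripts of other tissue were uneven in the P0 Wt arrays. Fibroblast and matrix list means were 9.17 to 10.15 in P0 Wt and 8.63 to 9.04 in P0 Het arrays. Sensory neuron list means were 7.85, 3.85, 3.07 and 7.21 in P0 Wt replicates 1 to 4 and 2.97 to 3.19 in P0 Het arrays. Skeletal muscle means ran from 3.17 to 9.27 in P0 Wt, and the P0 Het means lay within that range. The part of such tissue in the 130 lower calls was not tested. For stage differences it was examined only by leaving out P0 arrays.

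The 9 genes were Cartpt, Ccn3, Stk26, Nwd2, Alk, Tenm3, Sytl4 and Shox2, higher at both stages, and Gm12371, lower at both. Cartpt was higher by 3.33 at P0 and by 2.73 at P18, Sytl4 by 2.28 and 2.11, and Ccn3 by 1.17 and 1.85. Stk26 was higher by 2.60 and 1.45, Shox2 by 2.91 and 1.56, Nwd2 by 1.06 and 1.52 and Tenm3 by 0.49 and 0.75. Gm12371 was lower by 1.15 at P0 and by 2.07 at P18. None of the 9 was called for a difference between the stages, the lowest adjusted p being that of Stk26 (0.18). With the P18 and the P0 arrays fitted separately, an alternative chosen after seeing the data, 18 and 163 genes were called, and 4 of them at both stages, Cartpt, Stk26, Cbln2 and Cnr1, all higher.

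**Figure D2:**
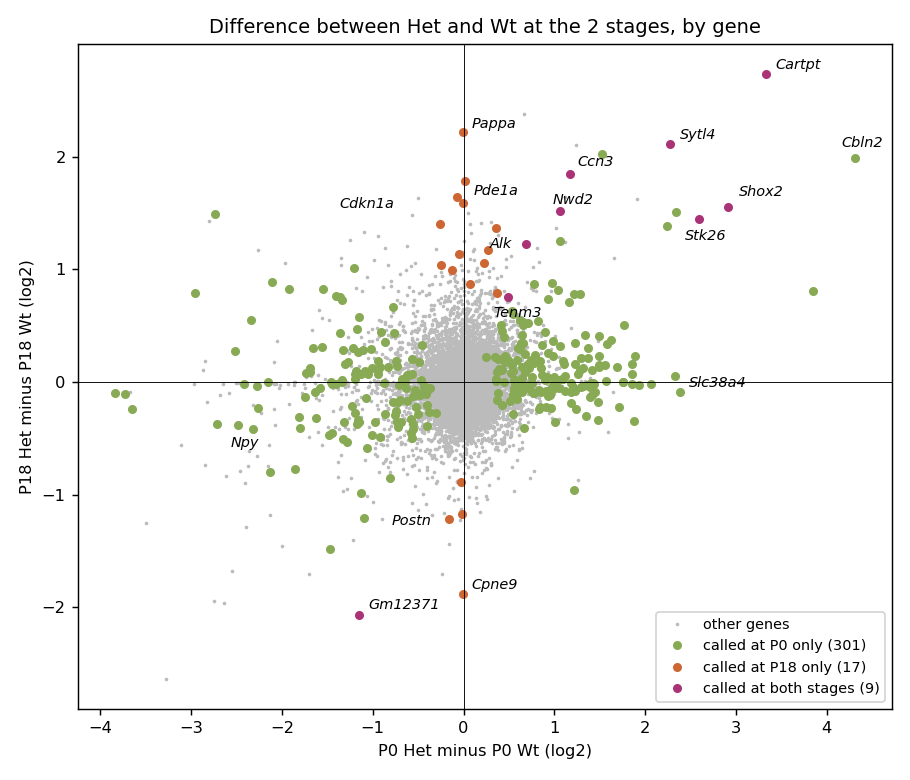
Het minus Wt difference at P0 (x axis, log2) and at P18 (y axis, log2), 1 point for each of 9973 genes, with colours for genes called at 1 stage or both. Most of the 301 genes called at P0 only lie near 0 at P18, 17 genes called at P18 only lie within 0.5 of 0 at P0, and 9 are called at both stages.

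Over all 310 genes called at P0, 183 (59%) had the same sign at P18, against 52.8% of all genes tested. The 180 genes higher at P0 had a median difference of 0.96 there and of 0.07 at P18. At P18, 64 of the 180 lay at or under log2 4 in all 5 arrays, near background, as did 603 of all 9973 genes tested. All Het arrays lay above all Wt arrays for 58 of the 180 (32.2%), against 15.9% of all genes. The 130 lower genes had a median of -1.10 at P0 and of -0.04 at P18, and 16 of them lay at or under log2 4 in all 5 P18 arrays. Of the 130, 47 (36.2%) had all Het arrays below all Wt arrays at P18, against 19.7% of all genes. At P18, 17 genes had an adjusted p between 0.05 and 0.1, 13 higher and 4 lower, and 15 of them were not called at P0. The other 2 were Cnr1, the cannabinoid receptor gene, with 5.98, 5.96 and 5.95 in Wt and 7.44 and 7.25 in Het arrays (adjusted p = 0.056), and Cadps2, which were higher at P0 by 2.24 and by 1.52.

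The cell cycle genes were a group with calls at P0 and none at P18. Of 39 mitosis genes tested, 28 were called higher in Het at P0 (1.8% of all genes were), with a list median of 1.11. At P18 none was called, the median was -0.02 and the differences ran from -0.41 to 0.56. Only 0.261% of all genes were called at P18, so 0 calls do not set a list of this size apart. However, 32 of the 39 lay at or under log2 4 in all 5 arrays at P18, so that most of the list was at background in both genotypes. The array means of the list were 3.15 to 3.28 in Wt and 3.17 and 3.21 in Het. Of 7 members above log2 4 in some P18 array, 3 had arrays that did not overlap, as did 35.5% of all genes tested. Anln, which encodes anillin, differed by 0.56, Kif2c by -0.41 and the securin gene Pttg1 by -0.26, and the other 4, among them the condensin genes Smc2 and Smc4, by -0.13 to 0.04. DNA replication and S phase genes (22 tested) had 7 higher calls at P0 (1.8% of all genes) and 0 calls at P18 (0.261%). Their medians were 0.54 and -0.03.

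The difference between the Het effects at both stages was tested directly. It was called for 14 genes (0.14%), 8 positive and 6 negative, of which 57.1% were positive, against 44.4% of 18 calls with each array centred on its median. An unadjusted p under 0.05 was found for 989 genes (9.92%). The count was 2 without P18 Het replicate 5, and 3 without P0 Het replicate 5, 7 or 8. It was 28 without P0 Wt replicate 2 or 3 and 56 without P0 Wt replicates 1 and 4, in which sensory neuron transcripts had been found in an earlier analysis.

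Of the genes higher in Het at P0 and not at P18, Slc38a4, an amino acid transporter, was at 5.34 to 5.91 in Wt and 7.80 to 8.08 in Het arrays at P0 and at 2.28 to 2.62 in all 5 arrays at P18. The stage difference of -2.47 ± 0.25 (SE, limma adjusted p = 0.00053) therefore compares a difference at P0 with background at P18. Kif2c, a kinesin of mitosis, Ect2, a cytokinesis factor, and Shcbp1 had stage differences of -1.08, -1.37 and -1.02. Kif2c lay between 3.82 and 4.30 and Ect2 between 2.78 and 3.13 in the P18 arrays.

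Cpne9 and Pappa went the other way round. Cpne9 was at 2.46 to 2.53 in all 8 P0 Wt and Het arrays and Pappa at 2.66 to 2.79, so neither had a level above background at P0. Their stage differences were -1.87 ± 0.28 (SE, limma adjusted p = 0.018) and 2.23 ± 0.36 (0.029). Gpnmb and Rassf4 had stage differences of 1.67 and 1.29, with P0 differences of -0.26 and -0.25, and Pappa and Gpnmb entered this test too only through the P18 Het arrays. All 17 genes called at P18 and not at P0 differed by less than 0.5 at P0, the most in Smoc1 (0.37 ± 0.12, adjusted p = 0.10) and Pcdh19 (0.36 ± 0.13, 0.17), and 5 of the 26 P18 calls were called between the stages.

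**Figure D3:**
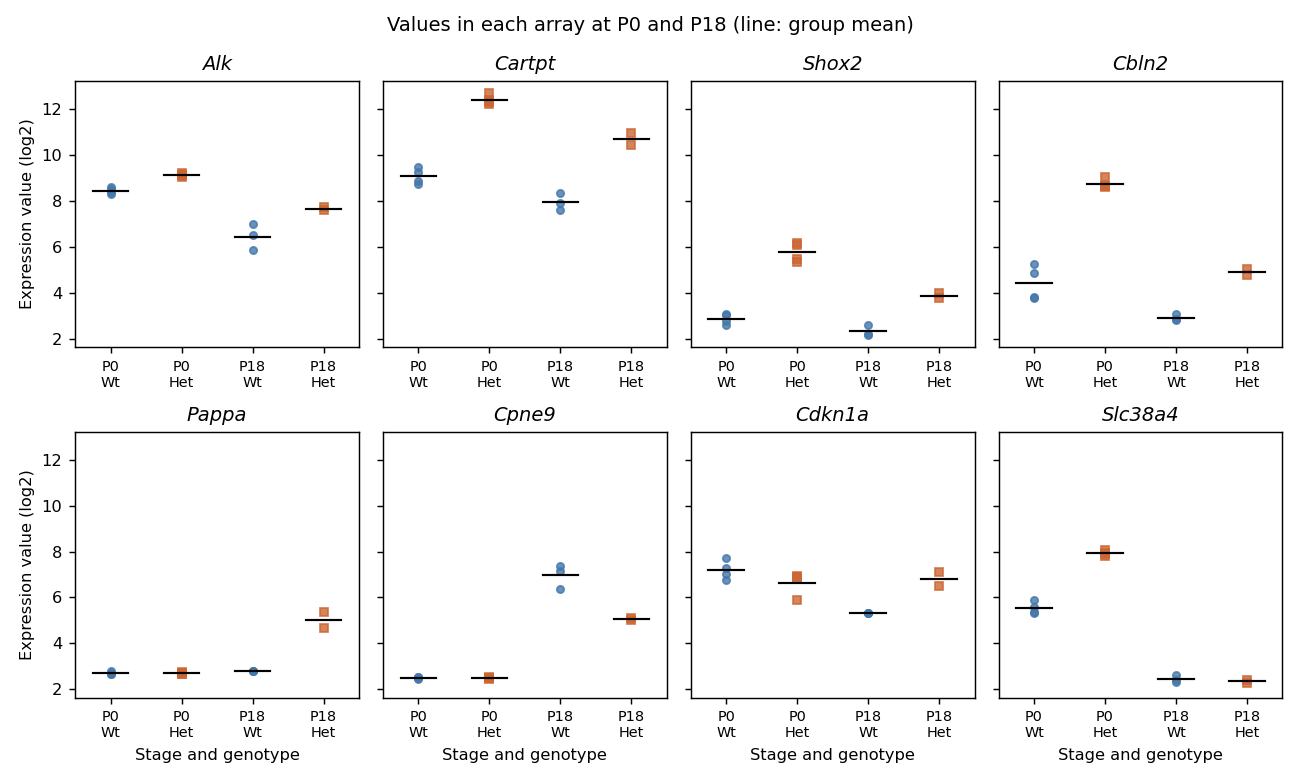
Log2 expression value (y axis) of 8 genes in each array of the 4 groups (x axis), with 4 Wt and 4 Het arrays at P0 and 3 Wt and 2 Het arrays at P18, and lines for group means. Het points lie above Wt at both stages for Alk, Cartpt, Shox2 and Cbln2, while Pappa and Cpne9 separate at P18 only and Slc38a4 at P0 only.

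Cdkn1a, which encodes the cyclin-dependent kinase inhibitor p21, was at 5.31, 5.34 and 5.31 in Wt and at 6.49 and 7.11 in Het arrays. The Wt arrays were within 0.1 of each other, and the difference of 1.48 ± 0.30 (SE) just missed the call at P18 (limma adjusted p = 0.0507). Its P0 difference was -0.57, and the stage difference of 2.05 ± 0.37 was called (adjusted p = 0.047). That call was lost in 15 of 24 alternative limma settings, including each P18 array left out (adjusted p up to 0.32). Among 10 cell cycle inhibitors none was called at P18, 3 had an unadjusted p under 0.05 for a higher level (3.88% of all genes did) and 5 had Het arrays above all Wt arrays (15.9% of all genes did). The other 2 of those 3 were Cdkn2c (0.73) and Btg1 (0.98).

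Cdkn1a also belongs to a list of 14 glucocorticoid-responsive genes. None was called at P18. However, 6 had an unadjusted limma p under 0.05 for a higher level (3.88% of all genes did) and 0 for a lower level (3.92% did). Both Het arrays lay above all Wt arrays for 10 of 14, against 15.9% of all genes. The list median was 0.42 at P18 and -0.11 at P0, against -0.02 over all genes at P18. The array means of the list were 7.64, 7.45 and 7.76 in Wt and 8.06 and 8.19 in Het. Zbtb16 differed by 0.95, the clock gene Per1 by 0.50, Klf9 by 0.47, Nfkbia by 0.40 and Fkbp5 by 0.30, with adjusted p of 0.21 to 0.62. Klf9, a transcription factor, was at 9.40, 9.40 and 9.53 in Wt and at 9.87 and 9.97 in Het arrays at P18. At P0 it was lower in Het by 1.17, at 6.12 to 6.53 against 7.33 to 7.69 in Wt. The P0 Hom arrays lay above both, at 7.71 to 8.52, so the lower level was particular to the P0 Het arrays. The stage difference of Klf9, 1.64 ± 0.28, was called (limma adjusted p = 0.033). Antxr2 and Sel1l3 had the same order of signs, with stage differences of 1.40 and 1.31.

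Of 7 genes regulated by activity or injury none was called, 4 had an unadjusted p under 0.05 for a higher level, against 3.88% of all genes, and the median was 0.56. Gem, a small GTPase, was at 3.09, 2.72 and 3.72 in Wt and at 4.40 and 4.94 in Het arrays, and Atf3 and Jun, factors induced by axon injury, differed by 0.94 and 0.57. The means of the RNA quality list, given above, overlapped between the genotypes.

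**Figure D4:**
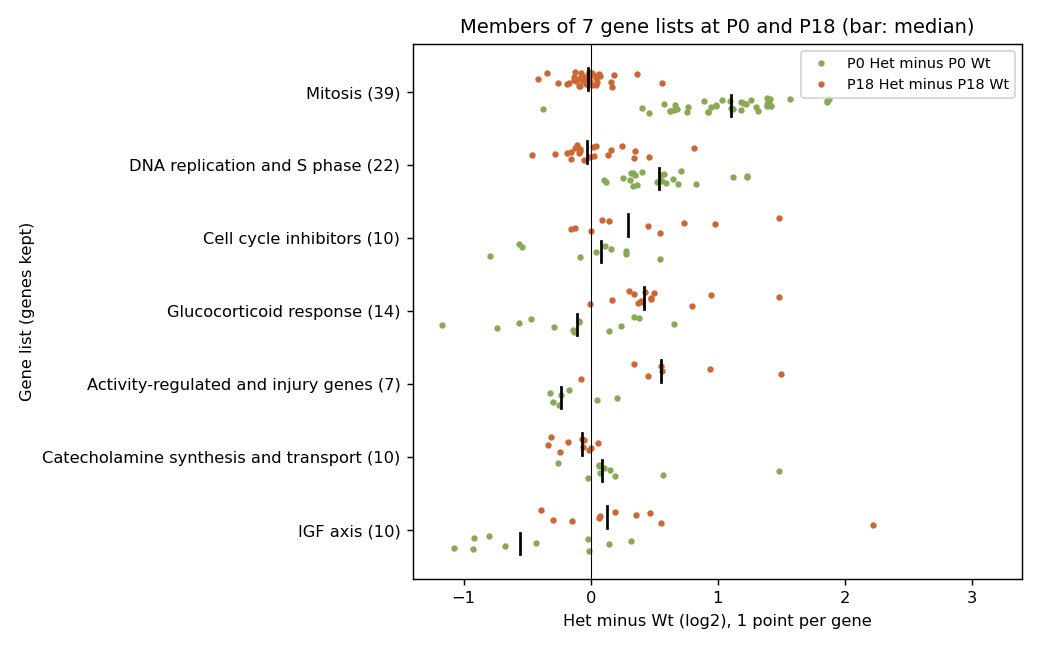
Het minus Wt difference (x axis, log2) of each gene of 7 lists (y axis, number of genes tested in brackets) at P0 and P18, with bars for list medians. Mitosis genes centre on 1.11 at P0 and on -0.02 at P18, and glucocorticoid-responsive genes on -0.11 at P0 and 0.42 at P18.

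Among the lists for other cell types, Postn was the only gene called at P18 apart from Cartpt, which the chromaffin and carotid body list also holds. The means of 14 macrophage and leukocyte genes were 5.21, 5.26 and 5.61 in Wt and 5.11 and 5.11 in Het arrays, and Aif1, a microglial and macrophage protein, differed by -1.01 (limma adjusted p = 0.33). The skeletal muscle list had a median of -0.95, with 0 of 15 genes called, and it followed Wt replicate 1. Acta1, skeletal muscle actin, was at 9.13 in that array and between 3.45 and 4.17 in the other 4. The part of this tissue in the 26 calls was not tested, beyond the 9 calls left without that array, 7 of them among the 26.

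The promoters of the called genes are shown for 2 genes because both were called higher at both stages and hold the same cyclic AMP response element. RefSeq windows (GRCm38.p6) of 300 bases, from 250 before to 50 after each annotated start, were searched on both strands. The element TGACGTCA was found in 2 of the 28 windows of 21 called genes, those of Cartpt and Tenm3, and in 1.79% of all 32851 windows. The AP-1 motif TGANTCA was found in 3 of the 28 (Gpnmb, Nwd2 and Phyhd1) and in 7.81% of all windows, and the ETS motif CCGGAAG in 0 and in 8.86%. These matches describe the letters only. The bases before the start of each gene, on the minus strand, are given with the element in capitals.
Cartpt, chr13:99900684-99900933: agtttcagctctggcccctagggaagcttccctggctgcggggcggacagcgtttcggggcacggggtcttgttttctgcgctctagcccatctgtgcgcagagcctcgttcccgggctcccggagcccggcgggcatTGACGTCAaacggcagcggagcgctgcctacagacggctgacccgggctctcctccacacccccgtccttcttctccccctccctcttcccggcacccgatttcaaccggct
Tenm3, chr8:48674691-48674813: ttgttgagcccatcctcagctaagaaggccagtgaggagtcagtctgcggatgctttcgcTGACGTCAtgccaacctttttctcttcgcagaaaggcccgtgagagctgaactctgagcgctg
The element lies 112 to 105 bases before the annotated start in the Cartpt window and 63 to 56 bases before that in the Tenm3 window. Both starts are internal to the span of the gene, 9.5 kb and 848 kb from its upstream end, and which start the ganglia use was not measured. These are the genes with the largest (2.73) and the smallest (0.75) differences among the calls.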

How the data were processed

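RNA of pooled sympathetic ganglia was hybridised to Affymetrix Mouse Genome arrays, 1 colour, in 17 samples. The labels describe extraction from tumors with a column kit, while the study's methods describe ganglia and a phenol-based extraction. The authors processed the arrays with GCRMA and a gene-level annotation (versions not given in the sources used here), and deposited 1 log2 value for each gene in each array. Joint normalization of the 17 arrays is not stated in the sources used here. Arrays have no read depth, and their number limits the precision. Of 17306 probe sets, 16464 matched 1 symbol by Entrez ID and 842 none.

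A model with a mean for each of the 5 groups was fitted to these values with limma 3.58.1 (R 4.3.3) and moderated with eBayes (trend and robust). Tests were two-sided, with Benjamini-Hochberg adjustment over the 9973 genes above log2 4 in at least 2 arrays. A filter on the 5 P18 arrays was an alternative. Intervals are 95% and not adjusted for the number of genes. The code was tested on simulated data. Named were the 12 largest rises and 12 largest falls without overlap (only 5 fell), called list members, 12 fixed genes and the 6 largest stage differences in each direction. The remaining called genes, the genes near the threshold and other list members were named after their values were seen. Members, lists and rules were chosen with earlier results of these data known. The motifs were chosen after the calls were seen.

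Alternatives were 3 other filters, plain eBayes, quantile normalization, median centring, array weights, Xist as a covariate, leaving out sex-linked genes and genes near Alk, fits of fewer arrays, a fold limit of 1.2, the methods' test of pairs of groups, and leaving out each array in turn. Fitting the stages separately was added after seeing the data. In the main fit, P0 Hom arrays entered only the filter and the estimate of spread.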

Additional observations from a re-analysis of the deposited data

Results flagged for a closer look

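The Het effect differed between the stages for 14 genes (limma, adjusted p under 0.05). As P18 minus P0, it was -2.47 for Slc38a4, 1.40 for Antxr2, -1.87 for Cpne9, 2.23 for Pappa, 1.64 for Klf9, -1.02 for Shcbp1, -1.08 for Kif2c, 1.67 for Gpnmb, 2.05 for Cdkn1a, 1.29 for Rassf4, -1.37 for Ect2 and 1.31 for Sel1l3, and 1.59 and -1.54 for 2 probe sets with no symbol. Among the named genes, 1 array stood far from the other 3 of its P0 group in 4 of 68 groups examined, where chance gives about 1 in 20. Gm12371 was at 3.12 in P0 Het replicate 8, against 2.61 to 2.62 in the others, and Phyhd1 at 3.23 in P0 Wt replicate 2, against 4.15 to 4.23. Cdkn1a was at 5.88 in P0 Het replicate 6, against 6.81 to 6.94, and Cbln2 at 9.06 in P0 Het replicate 5, against 8.59 to 8.66. Groups of 2 or 3 arrays at P18 were not examined in this way.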

How the results depend on the processing

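The 26 calls of Het against Wt at P18 became 56 with no filter, 15 with a log2 minimum of 6, 41 with the filter on the P18 arrays, 401 with array weights, 5 with a limit of 1.2-fold, 1028 with the methods' test unadjusted and 1 after Benjamini-Hochberg, and 5 to 29 with 1 P18 array left out. The 14 calls between stages became 31 with no filter, 3 with a minimum of 6, 23 with plain eBayes, 303 with array weights, 5 with Xist as a covariate, 27 with the 13 Wt and Het arrays alone, 56 without P0 Wt replicates 1 and 4, and 2 to 28 with 1 array left out. The 9 genes called at both stages became 60 with array weights, 5 with median centring, 4 with the stages fitted separately (chosen after seeing the data), and 1 to 10 with 1 P18 array left out. The causes were not tested. Over the 34 genes of the naming rule, 600 values at P18 under the alternatives held 109 lost calls, 15 gained calls and no called value of changed sign, and 804 values of the stage difference held 103, 20 and none. No paired analysis was possible because the P18 Wt and P18 Het arrays share no replicate numbers. With 2 Het arrays the smallest difference among the 26 calls was 0.75, and values under log2 4 lie near background, where sizes are inexact.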
